A study of Mus musculus with 8 samples.

Results

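The genes studied here make, break down and respond to cyclic AMP (cAMP). They were chosen by symbol: the adenylyl cyclases (Adcy), the cyclic nucleotide phosphodiesterases (Pde), the regulatory and catalytic subunits of protein kinase A (Prkar, Prkac), the A-kinase anchoring proteins (Akap), and *Gnas*, *Creb1*, *Crem* and *Atf2*. Of the 44674 genes in the table, 57 protein-coding genes met this rule. They comprised 10 cyclases, 20 phosphodiesterases, 16 anchoring proteins, 4 regulatory and 2 catalytic subunits, the 4 genes given by name, and *Pde6d*, which carries a Pde symbol but encodes a prenyl-binding protein and no cyclic nucleotide hydrolase. *Pde2a* was not analysed here, because its identifier in the annotation used had no row.

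Brown adipose tissue (BAT) mRNA was sequenced from 4 control and 4 Ox1RΔSERT male mice, to compare BAT after loss of orexin receptor 1 (Ox1R) from serotonergic cells with BAT of controls. Ox1RΔSERT mice (labelled Sert-Ox1R) carried Ox1R fl/fl and Sert-Cre tg/wt, and control mice (labelled CTRL) were Ox1R fl/fl animals of the same breeding without Cre. All mice received a high-fat diet (HFD) from 4 to 18 weeks of age and BAT was taken at the end of a hyperinsulinemic-euglycemic clamp, in which insulin is infused and glucose held constant. Sert-Cre is driven by the serotonin transporter gene, so the deletion was aimed at serotonergic neurons, and the driver also labels some cells of the cortex and thalamus outside the raphe nuclei. *Hcrtr1*, the gene of Ox1R, had 0, 5, 2 and 3 counts in the control and 0, 3, 5 and 4 in the Ox1RΔSERT libraries. Because the deletion was aimed at neurons, counts in BAT cannot check the genotype.

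In brown adipocytes, noradrenaline acts on β-adrenergic receptors, which are coupled to the stimulatory G protein (*Gnas*) and raise cAMP through adenylyl cyclases. cAMP releases the catalytic subunits of protein kinase A (PKA) from the regulatory subunits, and PKA then phosphorylates lipolytic proteins and transcription factors of the CREB family. Phosphodiesterases end the signal by hydrolysing cAMP, and anchoring proteins hold PKA at particular sites in the cell. This route is the classical trigger of thermogenesis and of *Ucp1* transcription in BAT.

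CREB, CREM and ATF2 bind the cAMP response element, so the promoters of these genes were searched for it. RefSeq promoters on GRCm38.p6, from 250 bases before to 50 after each start site, were found for 46 of the 57 genes. *Crem*, *Adcy6*, *Pde3b* and *Akap12* were among those without one, so they were not searched. The complete element TGACGTCA, which reads the same on both strands, occurred in 1 of 46 genes (2.17%), against 549 of all 27025 genes (2.03%). The shorter motif TGACG, read on either strand and including the complete element, occurred in 15 of 46 (32.6%) and in 23% of all genes. A gene was counted if any of its promoters held the motif, and the 46 genes had 1 to 6 promoters each. The number of promoters per gene was not compared with that of all genes. The complete element is shown for *Prkar1a*, the only gene of these 46 with it. The shorter one is shown for *Adcy7*, which had the highest log2 fold change of the 48 genes of the set tested below. Both are 30 bases of the plus strand, the strand of both genes, with the motif in capitals. The first lies at chr11:109650889-109650918, with its motif starting 49 bases before a start site, and the second at chr8:88282953-88282982, starting 28 bases before one.
Prkar1a: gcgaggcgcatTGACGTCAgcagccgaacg
Adcy7: gatcatagagcCGTCAggggggtggggctc
A match of letters is a description and no measurement of binding.

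Libraries held 35852708 to 50063339 estimated counts, of which mitochondrial genes took 33.6% to 46.8% and the 57 genes together 0.514% to 0.615%. The mitochondrial share was 33.6% to 36.2% in Ox1RΔSERT mice 11601, 11613 and 11708, below all controls. That of Ox1RΔSERT mouse 11243 was 44.6%, among the controls. Normalized values below are CPM values after TMM scaling, and 3 counts corresponded to a value of 0.0592 to 0.0951. On the first principal component, which held 52.2% of the variance, Ox1RΔSERT mice 11601 and 11708 stood apart from the other mice (61.6 and 80.5, against −47.5 to 8.62). Values without them are therefore given beside many of the results. Brown adipocyte markers (*Ucp1*, *Cidea*, *Dio2* and others), which define the labelled tissue, were abundant, with summed values of 6594 to 8717 in control and 4419 to 6826 in Ox1RΔSERT mice. Leukocyte and macrophage markers summed to 115 to 258 in control mice, to 190 and 208 in mice 11243 and 11613, and to 937 and 739 in mice 11601 and 11708. Fibroblast markers summed to 361 to 988 and 646 to 5378 in the respective groups. Skeletal muscle markers summed to 1958 in control mouse 11253 and 2770 in Ox1RΔSERT mouse 11708, against 19.4 to 262 in the other 6 mice. T and B cell markers stayed between 0.745 and 1.5. Because these are bulk samples, fewer cells of a type and less RNA per cell cannot be told apart.

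Each step of the cAMP route was represented in BAT by a few abundant genes. On the TPM scale, which corrects for transcript length, 15 of the 57 genes had a mean above 10 over the 8 mice and 34 had a mean above 1. *Gnas* stood far above the rest at 1644 ± 193 TPM (SD, n = 8), at the 99.9th percentile of the 24567 genes with counts.

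Among cyclases, *Adcy3* was the most abundant at 63.3 TPM, followed by *Adcy6* at 20.8, *Adcy4* at 3.69, *Adcy9* at 2.30 and *Adcy7* at 1.21. *Adcy3* is stimulated by calcium and calmodulin in vitro, and *Adcy6* is inhibited by calcium. The ranges of *Adcy3*, *Adcy6* and *Adcy4* over the 8 mice were apart from each other, whereas those of *Adcy4*, *Adcy9* and *Adcy7* overlapped in that order. *Adcy3* provided 51.5% to 80.5% of the summed cyclase TPM of a mouse.

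Phosphodiesterase levels were led by *Pde3b* at 49.6 TPM, the insulin-activated enzyme of adipocytes. *Pde4d* followed at 27.6, *Pde8a* at 11.5, *Pde4a* at 8.62 and *Pde7b* at 8.16. *Pde3b* lay above *Pde4d* in 8 of 8 mice although their ranges overlapped, and *Pde4d* lay above *Pde8a* with ranges apart. *Pde8a*, *Pde4a* and *Pde7b* could not be ordered by their ranges. *Pde3b* took 39.3% to 44.5% of the summed phosphodiesterase TPM of a mouse.

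PKA itself was mostly *Prkar2b* and *Prkaca*. *Prkar2b* (RIIβ, the type II regulatory subunit typical of adipose tissue and brain) had 283 TPM, *Prkar1a* 51.5, *Prkar2a* 6.36 and *Prkar1b* 0.528. *Prkaca* (Cα) had 55.6 TPM and *Prkacb* (Cβ) 12. Neighbours among *Prkar2b*, *Prkar1a* and *Prkar2a*, and the pair of catalytic subunits, had ranges apart. Anchoring proteins were led by *Akap1*, which sits on the outer mitochondrial membrane, at 46.1 TPM, then *Akap2* at 27.3 and *Akap7* at 12.7, with overlapping ranges. *Akap2* shares 84.4% of its exon bases with *Pakap* on the same strand, so its reads could have been split between both genes and its level is uncertain.

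**Figure D1:**
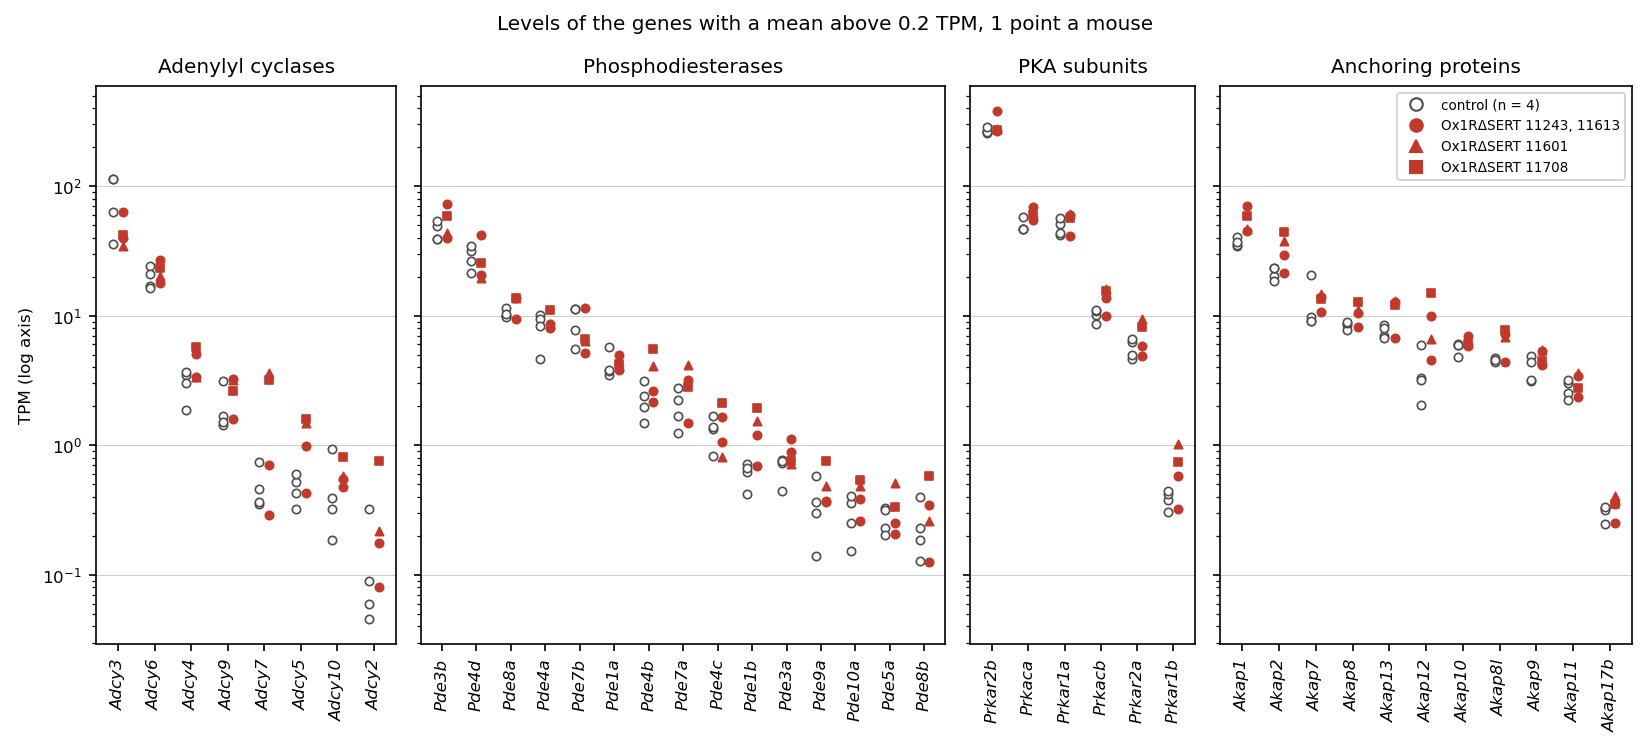
TPM on a log axis for cyclases, phosphodiesterases, PKA subunits and anchoring proteins with a mean above 0.2 TPM, with 1 point a mouse (open, 4 control mice; red, 4 Ox1RΔSERT mice; triangle, 11601; square, 11708). *Adcy3*, *Pde3b*, *Prkar2b*, *Prkaca* and *Akap1* lead their families, with means of 63.3, 49.6, 283, 55.6 and 46.1 TPM.

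At the low end, 9 of the 57 genes did not pass the filter on low counts and were not tested. *Akap4*, *Pde6b* and *Pde6c* had 0 counts in every mouse, which allows a value of up to 0.0592 to 0.0951 for counting error only. *Adcy1*, *Adcy8*, *Akap3*, *Akap14* and *Pde6a* had at most 24 counts in any mouse, and *Akap6* had 5 to 102 counts with high values in mice 11253 and 11708 alone. The calcium-stimulated cyclases other than *Adcy3* were thus at most 0.504 in any mouse.

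The comparison of genotypes then asked which steps of the route differed in BAT of Ox1RΔSERT mice. No gene passed. edgeR's quasi-likelihood test with Benjamini-Hochberg adjustment called 0 of 48 of these genes and 0 of all 14489 genes tested (0%), and the lowest adjusted p of any gene was 0.316. At an unadjusted p under 0.05 there were 6 of 48 (12.5%), against 2201 of 14489 genes (15.2%). Of the 6, *Adcy5*, *Adcy7*, *Pde1b* and *Akap12* were higher in Ox1RΔSERT mice (4 of 48, 8.33%, against 10.2% of all genes) and *Adcy3* and *Crem* were lower (2 of 48, 4.17%, against 4.96%). These shares are near those of all genes. The count of 6 became 1 without control mouse 11560 (6.86% of all genes), 1 without Ox1RΔSERT mouse 11708 (7.06%) and 2 without control mouse 11563 (9.09%). Groups overlapped in each of the 48 genes, whereas in 797 of all genes (5.5%) they did not. DESeq2 called 0 of 49 of these genes at an adjusted p under 0.05, and 265 of 15119 genes (1.75%). Without mice 11601 and 11708, 1 of 50 (2%), *Akap1*, had an unadjusted p under 0.05, against 2.85% of all genes.

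The median log2 fold change of the 48 genes, Ox1RΔSERT over control, was −0.04, with 21 positive and 27 negative, and that of all genes was 0.00. With library size scaling 87.5% of the 48 were positive and with TPM scaling 89.6%, while the median of all genes moved to 0.22 and, as log2(TPM + 1), 0.23. In size, the median was 0.18 for these genes and 0.19 for all genes. Of the 48, 13 had a 95% interval that stayed within 0.5 of 0 on the log2 scale and 35 within 1. The spread among control mice set part of this precision: the median coefficient of variation in controls was 40.5% for the 8 cyclases tested, 25.9% for the 17 phosphodiesterases, 11.2% for the 12 anchoring proteins and 14.9% for all genes.

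**Figure D2:**
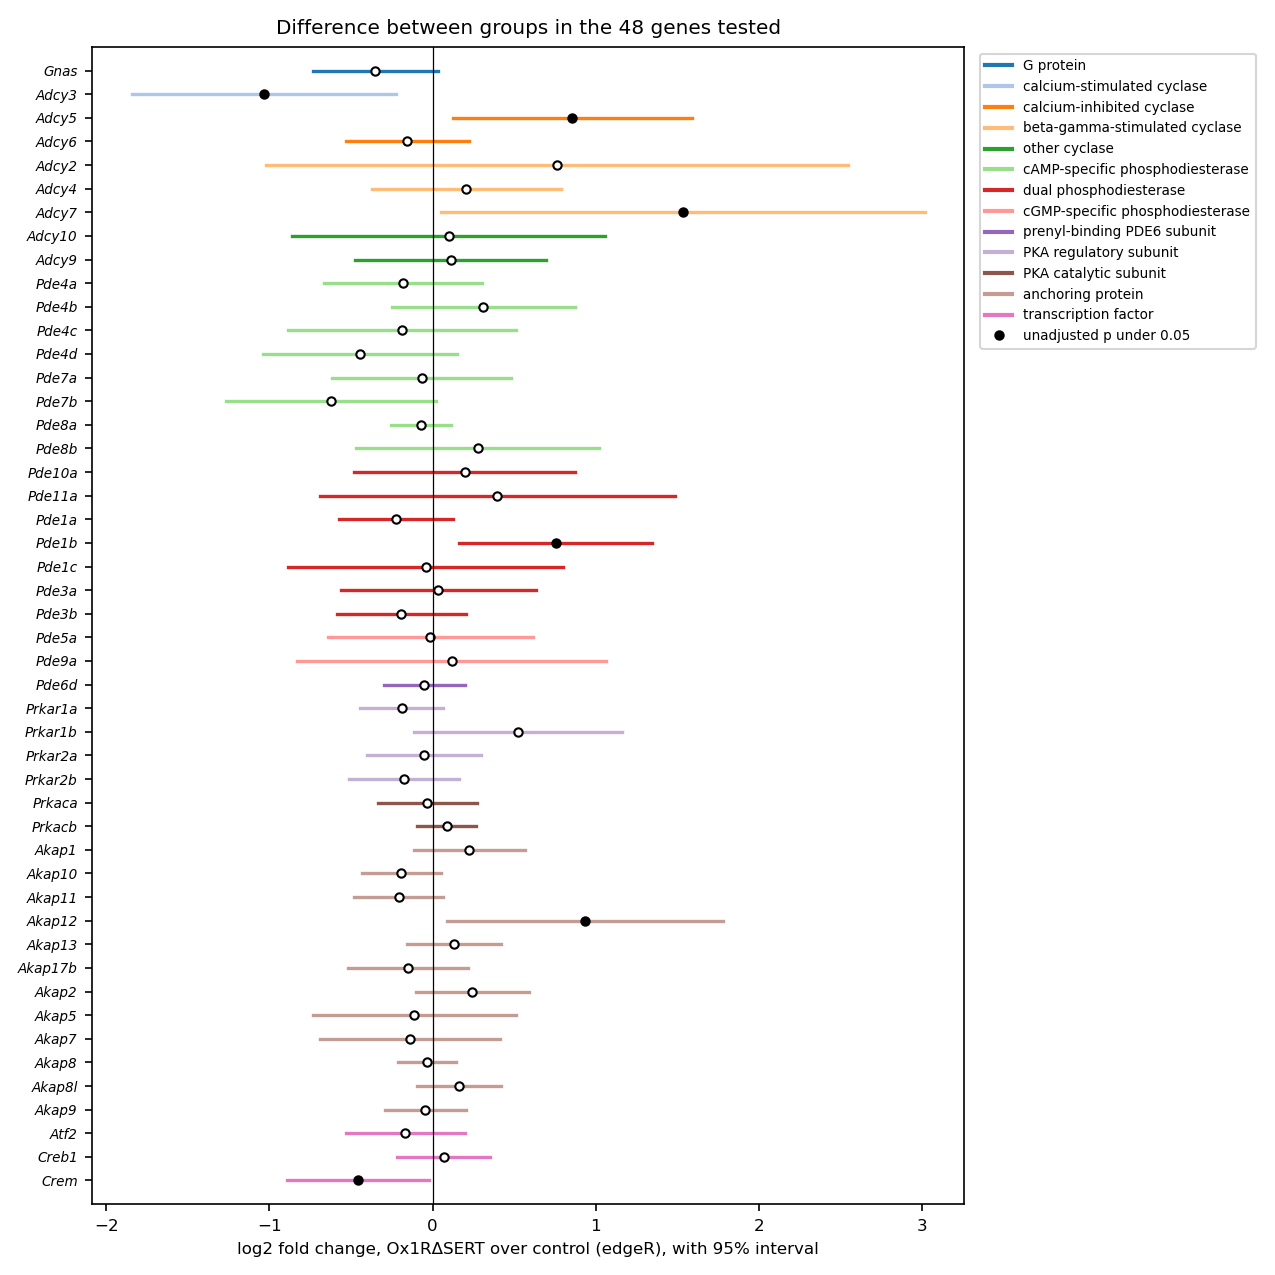
Log2 fold change, Ox1RΔSERT over control, with its 95% interval from edgeR for the 48 genes tested, coloured by role; filled points have an unadjusted p under 0.05. The 6 filled points run from −1.03 (*Adcy3*) to 1.53 (*Adcy7*), and PKA subunits other than *Prkar1b* lie between −0.19 (*Prkar1a*) and 0.09 (*Prkacb*).

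*Gnas*, which encodes the stimulatory G protein α subunit, reached normalized values of 3294 (control mouse 10684), 2659 (11253), 3324 (11560) and 2955 (11563). The Ox1RΔSERT mice had 3055 (11243), 2291 (11601), 2321 (11613) and 1921 (11708), and values are listed in this order below. The last 3 lay below all controls and mouse 11243 among them. Its log2 fold change was −0.35 ± 0.17 (SE), with an adjusted p of 0.352 by edgeR and an exact permutation p of 0.0857, two-sided. It was −0.18 without mice 11601 and 11708, and −0.06 on both TPM scales. The smallest p this exact test can give with 4 mice against 4 is 0.0286. Gene-level values of *Gnas* pool the imprinted transcripts of this locus.

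*Adcy3* had the lowest unadjusted p of the cyclases (0.0182 by edgeR). In the same order of mice, its normalized values were 151, 286, 466 and 423 in controls and 183, 112, 225 and 129 in Ox1RΔSERT mice. Control mouse 10684 had less than 2 of the Ox1RΔSERT mice, and the other 3 controls lay above all 4. The log2 fold change was −1.03 ± 0.36 (SE), with an adjusted p of 0.316 by edgeR and 0.0857 by DESeq2, and an exact permutation p of 0.0857. *Adcy3* spans chromosome 12, 4133103 to 4213525 on the plus strand of GRCm38, and 22.1% of its exon bases lie opposite *Cenpo*, whose counts were 0.0102 of those of *Adcy3*.

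The summed brown adipocyte markers were 6594, 7620, 8717 and 8489 in the controls and 6826, 4543, 6367 and 4419 in Ox1RΔSERT mice. The 3 mice with most *Adcy3* were the 3 with the highest sum, and the 2 with least *Adcy3* had the lowest. *Ucp1* was the largest term of the sum in every mouse. *Dio2*, the thyroid hormone-activating deiodinase and a marker in that list, had values of 198, 818, 946 and 1126 in controls and 309, 283, 534 and 198 in Ox1RΔSERT mice. Like *Dio2*, *Ppargc1a* and *Elovl3* were highest in the 3 controls other than 10684. Other markers of the list ran otherwise. *Prdm16* and *Zic1* were highest in control 10684 (24.3 and 14.1), and *Cidea* and *Ppara* in Ox1RΔSERT mouse 11613 (1414 and 163). The part of these markers in the *Adcy3* values was not tested. The log2 fold change of *Adcy3* was −0.70 when mice 11601 and 11708 were left out.

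The other abundant cyclase, *Adcy6*, had 128, 139.9, 188 and 157 in controls and 141, 109, 171 and 129 in Ox1RΔSERT mice. Groups overlapped widely, with a log2 fold change of −0.16 and a 95% interval of −0.53 to 0.22. Within each mouse, the ratio of *Adcy3* to *Adcy6*, which does not depend on scaling, was 2.14, 3.81, 4.71 and 5.44 in controls and 2.23, 1.71, 2.37 and 1.80 in Ox1RΔSERT mice. The 3 controls other than 10684 had ratios above all Ox1RΔSERT mice. *Adcy3* supplied 73.2% ± 9.22 (SD, n = 4) of cyclase TPM in controls and 57.2% ± 6.16 (SD, n = 4) in Ox1RΔSERT mice.

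Among the minor cyclases, *Adcy7*, which is stimulated by Gβγ and is known from immune cells, had 2.64, 6.31, 2.80 and 3.43 in controls and 2.29, 19.3, 4.42 and 17.9 in Ox1RΔSERT mice. The high values were those of mice 11601 and 11708 alone. Its log2 fold change was 1.53 ± 0.65 (SE), with an adjusted p of 0.325 by edgeR and an exact permutation p of 0.257. Without the pair of mice it was −0.16. Leukocyte and macrophage markers were likewise highest in mice 11601 (937) and 11708 (739). Of these markers, 10 of 10 were higher at an unadjusted p under 0.05 by edgeR, against 10.2% of all genes. Their log2 fold changes ran from 1.09 (*Csf1r*) to 2.83 (*Trem2*), and without the pair of mice from 0.03 (*Lyz2*) to 0.76 (*Trem2*). The marker list was chosen with earlier results of these data known, so its share is no independent evidence of a difference. The part of these markers in the *Adcy7* values was not tested. The gene lies on chromosome 8, 88272403 to 88329962.

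*Adcy5*, a calcium-inhibited cyclase, had 3.95, 5.01, 2.44 and 3.15 in controls and 3.32, 7.95, 6.47 and 8.56 in Ox1RΔSERT mice. Here 3 of 4 Ox1RΔSERT mice were above all controls. The log2 fold change was 0.86 ± 0.32 (SE), with an adjusted p of 0.316 by edgeR and an exact permutation p of 0.0857, and 0.44 without mice 11601 and 11708. *Adcy4*, stimulated by Gβγ, had 7.85 to 15.9 in controls and 9.78 to 17.8 in Ox1RΔSERT mice. *Adcy9*, known for its weak response to forskolin, ran from 8.97 to 18.8 and from 10 to 16.7.

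*Adcy2*, outside the rule for named genes and picked after its values were seen, had 0.235, 1.90, 0.316 and 0.462 in controls and 0.437, 0.809, 0.741 and 2.86 in Ox1RΔSERT mice. The untested anchoring gene *Akap6*, known from striated muscle and picked in the same way, had 0.235, 1.46, 0.113 and 0.189, then 0.197, 0.158, 0.135 and 2.10. Both genes were highest in mice 11253 and 11708, 1 of each genotype, the mice with the highest skeletal muscle marker sums (1958 and 2770). The part of muscle RNA in these values was not tested.

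**Figure D3:**
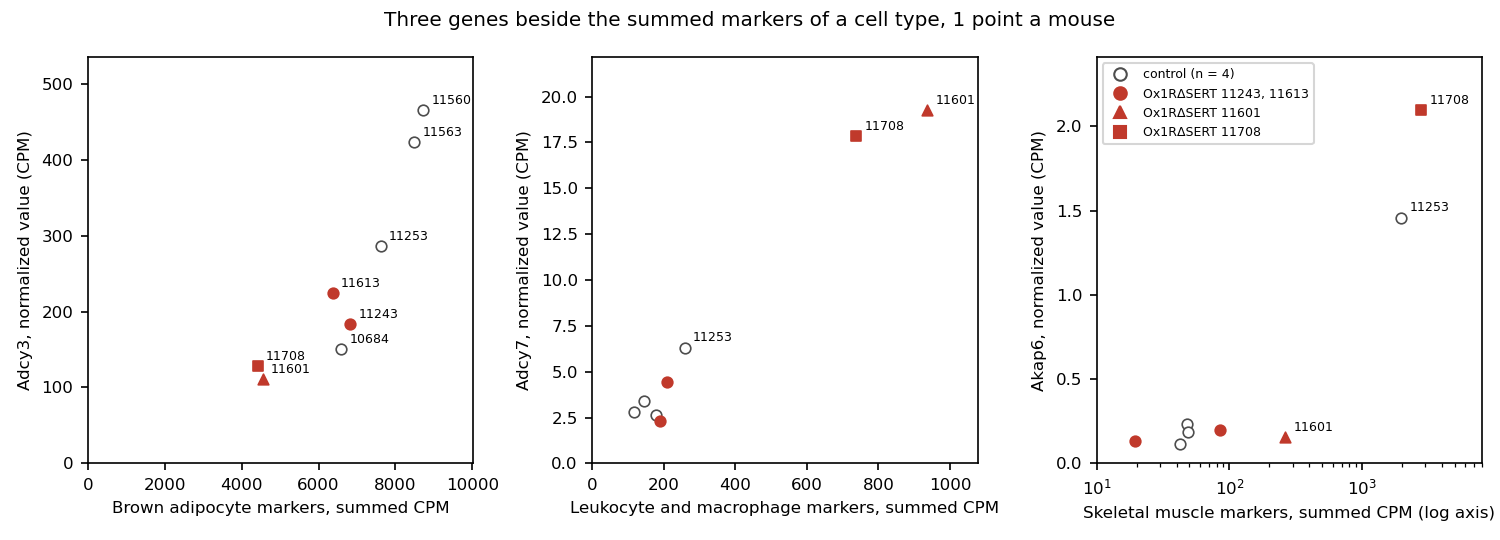
Normalized values (CPM) of *Adcy3*, *Adcy7* and *Akap6* against the summed CPM of brown adipocyte, leukocyte and macrophage, and skeletal muscle markers (log axis for muscle), with 1 point a mouse, some labelled by mouse number. *Adcy7* is at 19.3 and 17.9 in the mice with marker sums of 937 and 739, and *Akap6* at 1.46 and 2.10 in the mice with sums of 1958 and 2770.

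Of the phosphodiesterases, *Pde1b* had the lowest unadjusted p of the 48 genes (0.0181 by edgeR). This calcium- and calmodulin-activated enzyme hydrolyses both cAMP and cyclic GMP. Its values were 2.41, 3.14, 1.67 and 2.54 in controls and 2.79, 4.24, 3.88 and 5.51 in Ox1RΔSERT mice, and 3 of the latter were above all controls. The log2 fold change was 0.75 ± 0.26 (SE), with an adjusted p of 0.316 by edgeR, and the exact permutation p was 0.0571. It was 0.46 without mice 11601 and 11708. *Pde1b* spans chromosome 15, 103503034 to 103530052, and at 0.98 TPM it was a minor member of its family.

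Of the more abundant phosphodiesterases, *Pde3b* had 209, 267, 293 and 289 in controls and 244, 166, 279.6 and 235 in Ox1RΔSERT mice. Its log2 fold change of −0.19 had an interval of −0.59 to 0.20, and its sign turned when values were scaled by library size or as TPM. *Pde4d*, the main cAMP-specific enzyme here, had 96.7, 134, 146 and 156 in controls and 95.8, 62.9, 150.4 and 82.1 in Ox1RΔSERT mice. Its 3 lowest values belonged to Ox1RΔSERT mice, whereas mouse 11613 lay among the controls, and the log2 fold change was −0.45 with an adjusted p of 0.419 by edgeR. That of *Pde4d* was −0.11 without mice 11601 and 11708. The ratio of *Pde3b* to *Pde4d* within a mouse was 1.83, 1.5, 1.58 and 1.56 in controls and 1.93, 2.23, 1.76 and 2.31 in Ox1RΔSERT mice, so that control 10684 alone lay among the Ox1RΔSERT ratios. *Pde7b*, a cAMP-specific enzyme outside the rule for named genes and picked after its values were seen, had 25.4, 40.6, 53.7 and 52.0 in controls and 25.5, 21.4, 42.3 and 22.5 in Ox1RΔSERT mice. Its log2 fold change was −0.62, with an unadjusted p of 0.0571 by edgeR, and −0.34 without mice 11601 and 11708.

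*Pde4b*, a cAMP-specific enzyme prominent in leukocytes, had 15.4, 8.78, 12.4 and 9.79 in controls and 11.5, 14.8, 10.7 and 20.5 in Ox1RΔSERT mice. Its log2 fold change was 0.31 with an interval of −0.25 to 0.87, and −0.06 without mice 11601 and 11708. The cyclic GMP-specific *Pde9a* ran from 0.336 to 0.942 in controls and from 0.382 to 1.07 in Ox1RΔSERT mice. *Pde6d* values ranged from 7.70 to 9.23 and from 7.67 to 8.82. For *Pde9a* and *Pde6d* the groups covered nearly the same range. Of the 17 phosphodiesterases, 7 had a positive and 10 a negative log2 fold change under TMM scaling, with a median of −0.04.

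None of the 6 PKA subunits had an unadjusted p under 0.05 by edgeR or an adjusted p under 0.05 by DESeq2. *Prkar2b* had 826, 925, 849.9 and 885 in controls and 889, 640.5, 918 and 644 in Ox1RΔSERT mice. The 2 low values were those of mice 11601 and 11708, and the log2 fold change of −0.17 (interval −0.51 to 0.16) became 0.06 without them. *Prkar1a*, the type I subunit that holds the complete element shown above, had 140.1, 170.3, 181 and 193 in controls and 151, 147, 161 and 142 in Ox1RΔSERT mice. Its log2 fold change was −0.19 with an interval of −0.44 to 0.07.

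For the catalytic subunit *Prkaca*, values were 159, 146, 131 and 127 in controls and 158, 119.5, 155 and 117 in Ox1RΔSERT mice, and its interval was −0.34 to 0.27. *Prkacb* ran from 44.0 to 50.9 in controls and from 47.5 to 52.5 in Ox1RΔSERT mice, with an interval of −0.09 to 0.27. The signs of *Prkar2b*, *Prkar1a* and *Prkaca* turned when values were scaled by library size or as TPM, and that of *Prkacb* did not. The ratio of summed regulatory to summed catalytic subunit TPM within a mouse was 4.62 to 6.0 in controls and 4.46 to 5.37 in Ox1RΔSERT mice. Type II over type I regulatory subunits gave 5.05 to 6.43 and 4.65 to 6.44.

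**Figure D4:**
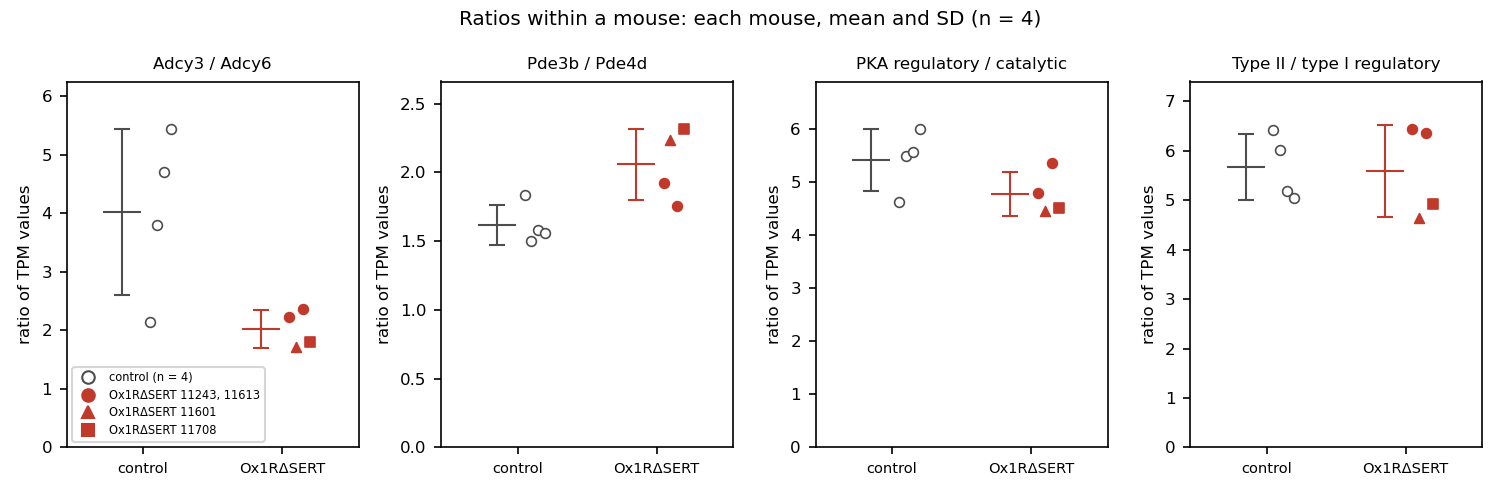
Ratios of TPM values within a mouse for *Adcy3* over *Adcy6*, *Pde3b* over *Pde4d*, PKA regulatory over catalytic subunits, and type II over type I regulatory subunits; points are mice, and lines the mean and SD of 4. *Adcy3* over *Adcy6* is 3.81 to 5.44 in 3 controls and 1.71 to 2.37 in Ox1RΔSERT mice, with control 10684 at 2.14.

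*Akap12* (gravin), a scaffold at the plasma membrane that binds PKA and β2-adrenergic receptors, was the anchoring protein with the lowest unadjusted p. It had 20.4, 37.7, 32.9 and 58.6 in controls and 46.8, 46.3, 82.1 and 110.9 in Ox1RΔSERT mice. Mice 11613 and 11708 lay above all controls and the others above 3 of 4 controls. The log2 fold change was 0.93 ± 0.37 (SE), with an adjusted p of 0.317 by edgeR and an exact permutation p of 0.114, and 0.79 without mice 11601 and 11708. Of the fibroblast markers, 5 of 5 were higher at an unadjusted p under 0.05, against 10.2% of all genes. That list was also chosen with earlier results known, so its share is no independent evidence. The fibroblast markers were highest in mice 11601 (5378) and 11708 (2501), and *Akap12* in mice 11708 and 11613. *Akap12* lies on chromosome 10, 4266380 to 4359470.

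*Akap1* had 188, 184, 164 and 169.6 in controls and 216, 157, 259 and 194 in Ox1RΔSERT mice. Only mouse 11601 was below the controls, and the log2 fold change was 0.23 with an interval of −0.11 to 0.56. Without mice 11601 and 11708 it was 0.43, with an unadjusted p of 0.0054 and an adjusted p of 0.996 by edgeR. On the TPM scale, *Akap1* was 34.6 to 40.7 in controls and 44.7 to 70.5 in Ox1RΔSERT mice without overlap, a scale on which most genes were higher in Ox1RΔSERT mice. *Akap2* had values of 149 to 208 in controls and 179 to 254 in Ox1RΔSERT mice. The 12 tested anchoring proteins had a median log2 fold change of −0.04, with 5 positive and 7 negative.

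Among the transcription factors, *Crem*, whose locus also encodes the cAMP-inducible repressor ICER and whose isoforms are pooled here, had 12, 19.3, 22.2 and 20.3 in controls and 12.9, 12.1, 16.1 and 12.7 in Ox1RΔSERT mice. As for *Adcy3*, 3 controls lay above all Ox1RΔSERT mice, and control 10684 lay below all of them. The log2 fold change was −0.46 ± 0.19 (SE), with an adjusted p of 0.324 by edgeR and an exact permutation p of 0.143, and −0.34 without mice 11601 and 11708. *Creb1*, the constitutive activator, had 17.3 to 24.8 in controls and 21.1 to 25.2 in Ox1RΔSERT mice, with an interval of −0.22 to 0.35. *Atf2*, also a target of stress kinases, had 52.1 to 80.2 and 53.5 to 73.2. Both groups of values overlapped.

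**Figure D5:**
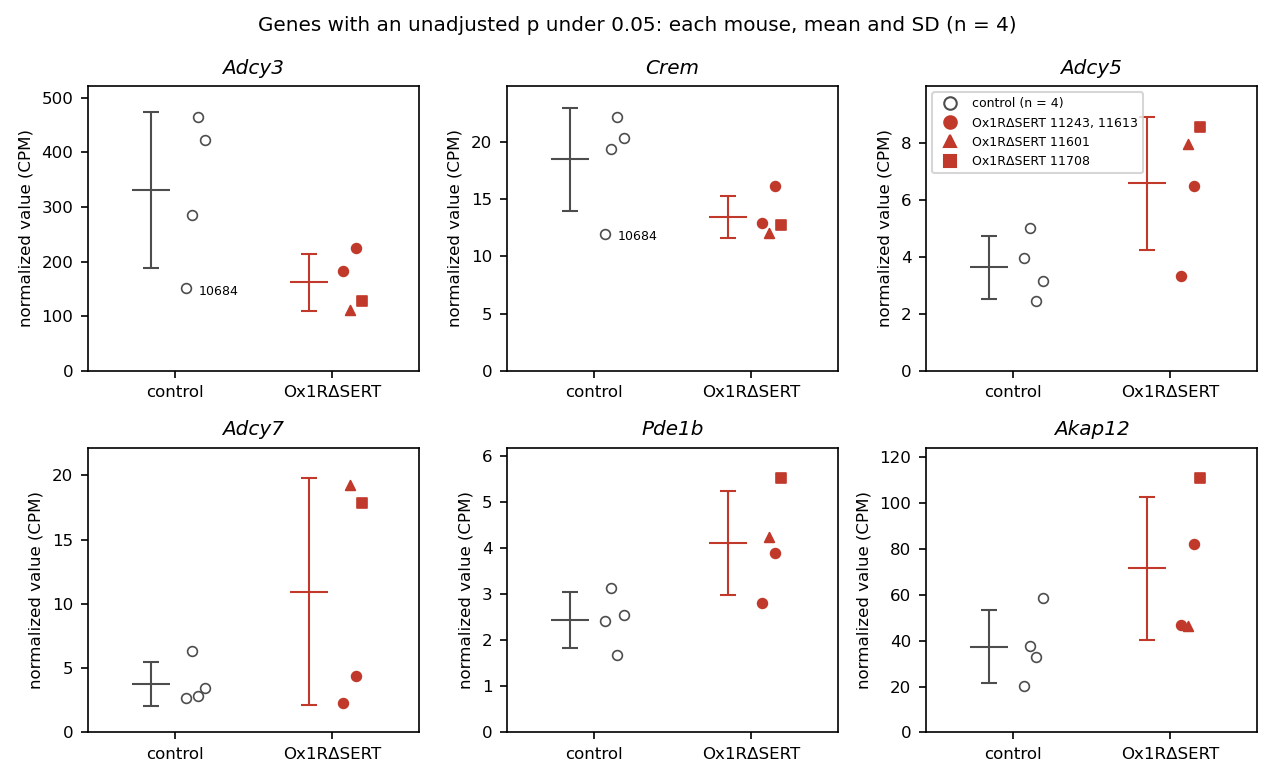
Normalized values (CPM) of the 6 genes with an unadjusted p under 0.05, with 1 point a mouse and the mean and SD of each group of 4. In *Adcy3* and *Crem* the labelled control mouse 10684 lies with the Ox1RΔSERT mice, at 151 and 12, and in *Adcy7* mice 11601 and 11708 (19.3 and 17.9) lie above the other 6.

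Other genes of the route were taken from 9 lists with 152 different genes, of which 117 were tested. edgeR called 0 of them at an adjusted p under 0.05, and 20 had an unadjusted p under 0.05 (11 higher and 9 lower in Ox1RΔSERT mice), 17.1% against 15.2% of all genes. DESeq2 called 6 of the 120 to which it gave an adjusted p (5%), against 1.75% of all genes. Without overlap of the groups, 7 of the 117 were higher and 4 lower, against 5.5% of all genes in either direction. The median log2 fold change over all lists was 0.04.

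Of 18 tested Gs-coupled receptors, 2 were higher and 1 was lower at an unadjusted p under 0.05 (16.7%, against 15.2% of all genes). *Adora2b*, the low-affinity adenosine receptor, had 0.654, 0.444, 0.384 and 0.462 in controls and 0.830, 4.20, 1.75 and 2.67 in Ox1RΔSERT mice. All 4 of the latter were above the controls, with a log2 fold change of 2.28 ± 0.47 (SE), an adjusted p of 0.316 by edgeR and 0.00287 by DESeq2, and 1.41 without mice 11601 and 11708. *Ptger4*, a prostaglandin E2 receptor, had a log2 fold change of 0.66 and the dopamine receptor *Drd1* one of −0.78, both without overlap of the groups. Of the 18 receptors, 2 were higher and 1 was lower without overlap, against 5.5% of all genes without overlap in either direction. *Adrb3*, the main β-adrenergic receptor of adipocytes, had 186, 147, 198 and 148 in controls and 232, 114, 333 and 176 in Ox1RΔSERT mice, with a log2 fold change of 0.33 and an interval of −0.33 to 0.99. Without mice 11601 and 11708, of which 11601 had the lowest value, that of *Adrb3* was 0.74 with an unadjusted p of 0.00525 by edgeR. In that fit edgeR called 0 of all genes at an adjusted p under 0.05.

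Of 10 tested Gi-coupled receptors, 1 had an unadjusted p under 0.05 (10%, against 15.2% of all genes). This was *Cnr1*, the cannabinoid receptor, with 8.42 to 11.7 in controls and 3.63 to 8.10 in Ox1RΔSERT mice. Its log2 fold change was −0.77 (−0.37 without mice 11601 and 11708). Among 20 G protein subunits and regulators 2 were higher at an unadjusted p under 0.05 (10%, against 15.2% of all genes). *Gnai2*, an inhibitory α subunit, had 50.3 to 62.6 in controls and 63.7 to 86.9 in Ox1RΔSERT mice, with a log2 fold change of 0.46 (0.27 without mice 11601 and 11708). *Arrb2*, a β-arrestin, had a log2 fold change of 0.70 (0.08 without them).

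Effectors and inhibitors showed little. None of 8 tested PKA inhibitors and other cAMP effectors had an edgeR unadjusted p under 0.05, against 15.2% of all genes. Nor did any of 5 lipolytic PKA substrates (*Lipe*, *Plin1*, *Plin5*, *Pnpla2*, *Abhd5*). DESeq2 called 0 of either list, against 1.75% of all genes. Of 15 anchoring proteins without an Akap symbol, 20% had an unadjusted p under 0.05, against 15.2% of all genes. *Ezr* (ezrin, log2 fold change 1.53) and *Gpr161* (1.24) were higher and *Myrip* (−0.95) was lower. *Ezr* was highest in mice 11601 (24.6) and 11708 (21.4), and without them its log2 fold change was 0.19. Of 12 coactivators and kinases of CREB, *Crtc3* (0.35) and *Creb5* (1.19) were higher at that p (16.7%). Of 11 genes for cyclic GMP synthesis and its kinases, 18.2% had such a p. The natriuretic peptide receptor *Npr1* (−0.52) was lower and the kinase *Prkg2* (1.65) higher, the latter −0.14 without mice 11601 and 11708.

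The list of cAMP-induced genes had 7 of 20 genes (35%) at an unadjusted p under 0.05, against 15.2% of all genes. Of these, 5 were lower and 2 higher, and the median log2 fold change of the list was −0.08. The list was chosen with earlier results of these data known, so its shares are no independent evidence of a difference. *Ucp1*, the uncoupling protein, had 3731, 3806, 4895 and 4631 in controls and 3817, 2513, 2903 and 2513 in Ox1RΔSERT mice, a log2 fold change of −0.54 with an adjusted p of 0.316 by edgeR. *Elovl3* (−1.07) and *Bmp8b* (−1.47) were lower without overlap of the groups, and *Nr4a2* (−1.03) and *Dio2* (−1.22) were lower with overlap. The early genes *Fos* (1.67) and *Junb* (0.90) were higher, and 5 of the 20 (*Bmp8b*, *Nr4a2*, *Elovl3*, *Fos* and *Junb*) were called by DESeq2, 25% against 1.75% of all genes. *Ucp1*, *Dio2* and *Elovl3* are also in the brown adipocyte marker list. Of its 10 genes, 5 were lower at an unadjusted p under 0.05, against 4.96% of all genes, and this list was also chosen with earlier results known. Without mice 11601 and 11708 the log2 fold changes were −1.50 for *Bmp8b*, −1.07 for *Nr4a2*, −0.73 for *Elovl3*, 0.59 for *Junb*, 0.38 for *Fos*, −0.34 for *Ucp1* and −0.87 for *Dio2*.

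Across the 48 genes, single mice of both genotypes held many of the extreme values. These counts were not made over all genes. Control mouse 10684 was the lowest of the 8 mice in 15 genes and the highest in 9, and control mouse 11560 was the highest in 13. Ox1RΔSERT mouse 11601 was the lowest in 10 and the highest in 6, and mouse 11708 the lowest in 8 and the highest in 9. Mouse 11243 was highest in 1 gene and lowest in 1. Without control mouse 10684, 49 of the 57 genes passed the filter, and the groups did not overlap in 4 of them (*Adcy3*, *Adcy8*, *Crem* and *Prkar1a*), against 14.1% of all genes. Without Ox1RΔSERT mouse 11243 they did not overlap in another 4 of 49 (*Adcy5*, *Gnas*, *Pde1b* and *Prkar1b*), against 16% of all genes.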

How the data were processed

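BAT mRNA of 8 mice was sequenced after poly-A selection with a stranded kit. Quantification by the authors used Salmon 0.14.1, run through nf-core/rnaseq, and the submitters' processing notes also name STAR and GRCm38.p6; trimming and the strand setting are not given in the sources used here. The authors deposited estimated counts per gene, not normalized, and TPM values, scaled for transcript length and depth. Mitochondrial genes are part of both, so TPM moves with their share.

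Symbols and positions came from GENCODE M21 (44118 of 44674 identifiers matched). Counts were rounded and all 8 mice compared, without covariates, by edgeR 4.0.16 under R 4.3.3 (filterByExpr, TMM, glmQLFit, glmQLFTest). Tests were two-sided, p-values were adjusted over all genes by Benjamini-Hochberg, and 0.05 was the threshold. edgeR estimated a common dispersion of 0.0988. The depth of 35852708 to 50063339 counts limits the precision for genes with few counts. Exact permutation tests used the 70 assignments of mice. DESeq2 1.42.0, limma 3.58.1 (voom; trend on log2(TPM + 0.1) and log2(TPM + 1)), other scalings and filters, and fits without each mouse, without 11601 and 11708 or without 11253 and 11708 were alternatives. Scripts were tested on simulated data with 200 changed genes.

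Genes were named by rule: those with an unadjusted p under 0.05, without overlap or called by DESeq2, the most abundant gene of each role, and a list of key genes. Members, lists and tests were chosen with earlier results of these data known. Mouse numbers are animal numbers and pair no samples.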

Additional observations from a re-analysis of the deposited data

Results flagged for a closer look

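*Adcy9* had a normalized value of 18.8 in control mouse 10684, against 8.97 to 10.5 in the other controls, a gap that passed Dixon's 95% critical value for 4 samples. It was 1 of 44 groups of named genes examined in this way, where chance gives about 1 in 20.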

How the results depend on the processing

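Precision was limited by 4 mice a group, and for minor genes by depth. Genes called by DESeq2 numbered 265 instead of 0. With library size scaling, the median log2 fold change of all genes was 0.22 in place of 0.00, and 97.2% of genes at an unadjusted p under 0.05 were higher in Ox1RΔSERT mice, against 67.3% with TMM. As log2(TPM + 0.1) and log2(TPM + 1) the medians were 0.32 and 0.23, and the shares 99% and 98.8%. At an unadjusted p under 0.05 there were 10 of the 48 cAMP and PKA genes with library size scaling (9 higher; 21.4% of all genes), 9 on either TPM scale (all higher; 22.1% and 21%), and 1 to 8 when each mouse was left out (6.86% to 22.4%): 1 without mouse 11708 (*Adcy3*), 1 without 11560 (*Pde1b*) and 2 without 11563 (*Akap12*, *Pde1b*). There were 3 without mice 11253 and 11708, a pair chosen after seeing the data, and 1 without 11601 and 11708 (6.53% and 2.85%). Genes without overlap of the groups numbered 1 with library size scaling and 1 with either TPM scale (*Akap1* in each), 0 to 4 when each mouse was left out (4 without 11243 or 10684), 2 without 11601 and 11708, and 2 without 11253 and 11708, against 5.02% to 16% of all genes over these fits.

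Over 19 alternatives, the log2 fold changes of 22 named genes gave 418 values, of which 39 reversed and 0 passed the threshold. *Adcy3*, *Adcy4*, *Adcy5*, *Akap1*, *Akap12*, *Crem*, *Gnas*, *Pde1b*, *Pde4d* and *Prkacb* kept their sign in every one. Reversed values were, with library size scaling, 0.05 for *Adcy6*, 0.04 for *Atf2*, 0.01 for *Pde3b*, 0.16 for *Pde6d*, 0.17 for *Prkaca*, 0.03 for *Prkar1a* and 0.03 for *Prkar2b*. As log2(TPM + 0.1) they were 0.17, 0.21, 0.22, 0.26, 0.31, 0.17 and 0.14 for the same genes in that order, and as log2(TPM + 1) 0.16, 0.20, 0.21, 0.23, 0.30, 0.16 and 0.14. Without mice 11601 and 11708 they were 0.03 for *Adcy6*, −0.16 for *Adcy7*, 0.01 for *Atf2*, −0.06 for *Pde4b*, −0.02 for *Pde9a*, 0.16 for *Prkaca* and 0.06 for *Prkar2b*. Without mice 11253 and 11708 they were −0.02 for *Pde4b* and 0.06 for *Prkaca*. With each mouse left out in turn, *Adcy9* ran from −0.03 to 0.41, *Creb1* from −0.02 to 0.13, *Pde9a* from −0.13 to 0.33 and *Prkaca* from −0.13 to 0.04. The cause of these changes, including the part of the mitochondrial share, was not tested.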
